A study of Mus musculus with 18 samples.

Results

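The genes described here are 39 interferon response genes, named by symbol and read from the gene expression file of a mouse spleen series, library by library. A row carried the symbol of 37 of them, among 19326 entries in all. They form a set of 28 type I-type genes, so called here because they are best known as targets of interferon alpha and beta, and a set of 8 GTPase genes. The GTPase set holds the guanylate-binding proteins Gbp2, Gbp3, Gbp5, Gbp6 and Gbp7 and the immunity-related GTPases Igtp, Irgm1 and Iigp1. The chemokine gene Cxcl10, which answers to both kinds of interferon, was kept apart. The remaining type I-type names, Mx1 and Mx2, had no row under their symbol and were not analysed here. All 37 genes passed the filter on low values described below.

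Interferon alpha and beta bind a receptor found on nearly all cells and activate transcription factors, STAT2 and IRF9 among them, that bind the interferon-stimulated response element in the promoters of antiviral genes. Interferon gamma, made mainly by NK cells and T cells, acts through another receptor and on another promoter element, the gamma-activated site, and it is the classical inducer of the guanylate-binding proteins and immunity-related GTPases. The programmes overlap: many GTPase genes also respond to type I interferon, and the spleen, which filters blood, holds the B cells, T cells, macrophages and dendritic cells that make and sense both.

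Expression was measured by RNA sequencing of whole spleen from ICR mice, an outbred stock, aged 10 weeks. There were 18 libraries in 6 groups of 3. The series asks what faecal microbiota transplant (FMT) does to a spleen damaged by a high fat diet and streptozotocin (STZ), a toxin of insulin-producing cells. The control group had no treatment named beyond that word. Animals of the AOS group were given 10 mg/kg of AOS, an abbreviation that is not expanded in the labels. The HS group had the high fat diet and STZ. HS_AOS had diet and STZ with AOS at 10 mg/kg, HS_AOSFMT had them with an FMT labelled with AOS at 10 mg/kg, and HS_conFMT had them with a control FMT. HS 3 stands below for the library labelled as the third of the HS group, and likewise for the others. Whether the 3 libraries of each group are separate mice is not labelled, and every p-value therefore measures the spread between libraries.

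FPKM values correct the fragment count of a gene for its length and for library size, so levels of different genes can be compared on this scale. The unit was inferred from the values, and absolute depth is unknown. Summed FPKM ran from 666441 to 831448 per library and 12221 to 12898 genes reached 1 FPKM. Haemoglobin genes took 12.9% to 35.5% of the sum. The defining markers of T cells and red pulp macrophages (Cd3e and Spic) were above 0 in all 18 libraries. In such whole-organ samples, fewer cells of a type and less RNA per cell cannot be told apart. Reads of near-identical copies, such as Ifit3 and Ifit3b, Oas1a and Oas1g, or the guanylate-binding proteins among themselves, may have been split in ways the sources used here do not give, so single members of these families are less certain.

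The promoters of the 2 sets were read from RefSeq (build GRCm38.p6, 250 bases before to 50 after a transcript start), where 28 of the 37 genes had a window. The response element core, GAAA followed by any 2 bases and GAAA again, was searched on both strands (TTTC, any 2 bases, TTTC on the other). It was present in 11 of 21 type I-type genes with a window (52.4%), in 6 of 6 GTPase genes and in Cxcl10, against 3.99% of all 27025 genes. The gamma-activated core TTCNNNGAA, which is its own reverse complement, was in 3 of 21 type I-type genes (14.3%) and in 3 of 6 GTPase genes, Gbp5, Gbp7 and Igtp, against 9.55% of all genes. A match describes these letters alone. The windows below, written 5′ to 3′ along the gene with matches in capitals, show members that the results turn on: Isg15 (chr4:156200769-156201068, minus strand) with 3 overlapping response elements, Ifit3 (chr19:34583279-34583578, plus strand) with 2, Gbp5 (chr3:142496684-142496983, plus strand) with 1 response element and 2 gamma-activated cores, Irgm1 (chr11:48871371-48871670, minus strand) with 2 overlapping response elements, and Irf7 (chr7:141266375-141266674, minus strand), which held neither in this window.
Isg15: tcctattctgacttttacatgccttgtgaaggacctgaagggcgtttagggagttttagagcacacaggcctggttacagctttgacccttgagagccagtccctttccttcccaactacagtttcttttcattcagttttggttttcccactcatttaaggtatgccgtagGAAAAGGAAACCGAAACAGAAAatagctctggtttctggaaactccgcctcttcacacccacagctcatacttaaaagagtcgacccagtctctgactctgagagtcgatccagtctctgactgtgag
Ifit3: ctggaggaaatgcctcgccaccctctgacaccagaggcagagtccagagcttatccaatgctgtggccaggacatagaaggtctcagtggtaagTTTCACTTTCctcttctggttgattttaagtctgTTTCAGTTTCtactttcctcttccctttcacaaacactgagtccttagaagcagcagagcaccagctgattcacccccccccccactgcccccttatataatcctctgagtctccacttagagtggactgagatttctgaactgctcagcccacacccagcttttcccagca
Gbp5: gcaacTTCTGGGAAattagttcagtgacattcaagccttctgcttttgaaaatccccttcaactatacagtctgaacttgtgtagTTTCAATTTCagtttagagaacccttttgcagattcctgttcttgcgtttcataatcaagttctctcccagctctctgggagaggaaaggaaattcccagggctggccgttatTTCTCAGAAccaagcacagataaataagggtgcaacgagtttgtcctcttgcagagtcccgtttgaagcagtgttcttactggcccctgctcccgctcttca
Irgm1: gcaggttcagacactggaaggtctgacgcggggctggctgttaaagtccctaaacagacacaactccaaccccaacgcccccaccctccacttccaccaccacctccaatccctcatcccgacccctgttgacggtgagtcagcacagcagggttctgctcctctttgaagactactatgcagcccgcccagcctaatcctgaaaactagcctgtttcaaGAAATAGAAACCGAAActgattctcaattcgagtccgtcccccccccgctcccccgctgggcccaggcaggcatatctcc
Irf7: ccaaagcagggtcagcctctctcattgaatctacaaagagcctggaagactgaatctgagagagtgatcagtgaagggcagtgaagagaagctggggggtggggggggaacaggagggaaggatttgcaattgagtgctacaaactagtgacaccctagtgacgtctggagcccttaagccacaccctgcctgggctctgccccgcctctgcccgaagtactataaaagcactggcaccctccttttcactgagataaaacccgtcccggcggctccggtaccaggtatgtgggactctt

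In 3 of the 6 groups a single library carried most of the type I-type signal: AOS 3, HS 3 and HS_AOS 3. AOS 3 had 28 of the 37 genes at least 1.5-fold (on FPKM + 1) above both other libraries of its group, where 0.887% of all tested genes were that far above. HS 3 had 26 (0.894% of all genes) and HS_AOS 3 had 23 (0.817%). The other 15 libraries had between 0 and 4. The count was 0 in AOS 1 and 2 (0.447% and 0.786% of all genes), HS 1 and 2 (1.47% and 0.347%) and HS_AOS 1 and 2 (1.36% and 0.509%). It was 0, 2 and 0 in HS_AOSFMT (1.15%, 0.941% and 0.37%), 0, 4 and 0 in HS_conFMT (0.833%, 1.64% and 0.833%) and 3, 0 and 1 in control (2.54%, 1.35% and 1.26%). By set, the 3 libraries stood out for 25, 23 and 22 of the 28 type I-type genes, but for 2, 3 and 0 of the 8 GTPase genes. AOS 3 gave the highest value of all 18 libraries for 34 of the 37 genes, as it did for 6.72% of all tested genes.

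**Figure D1:**
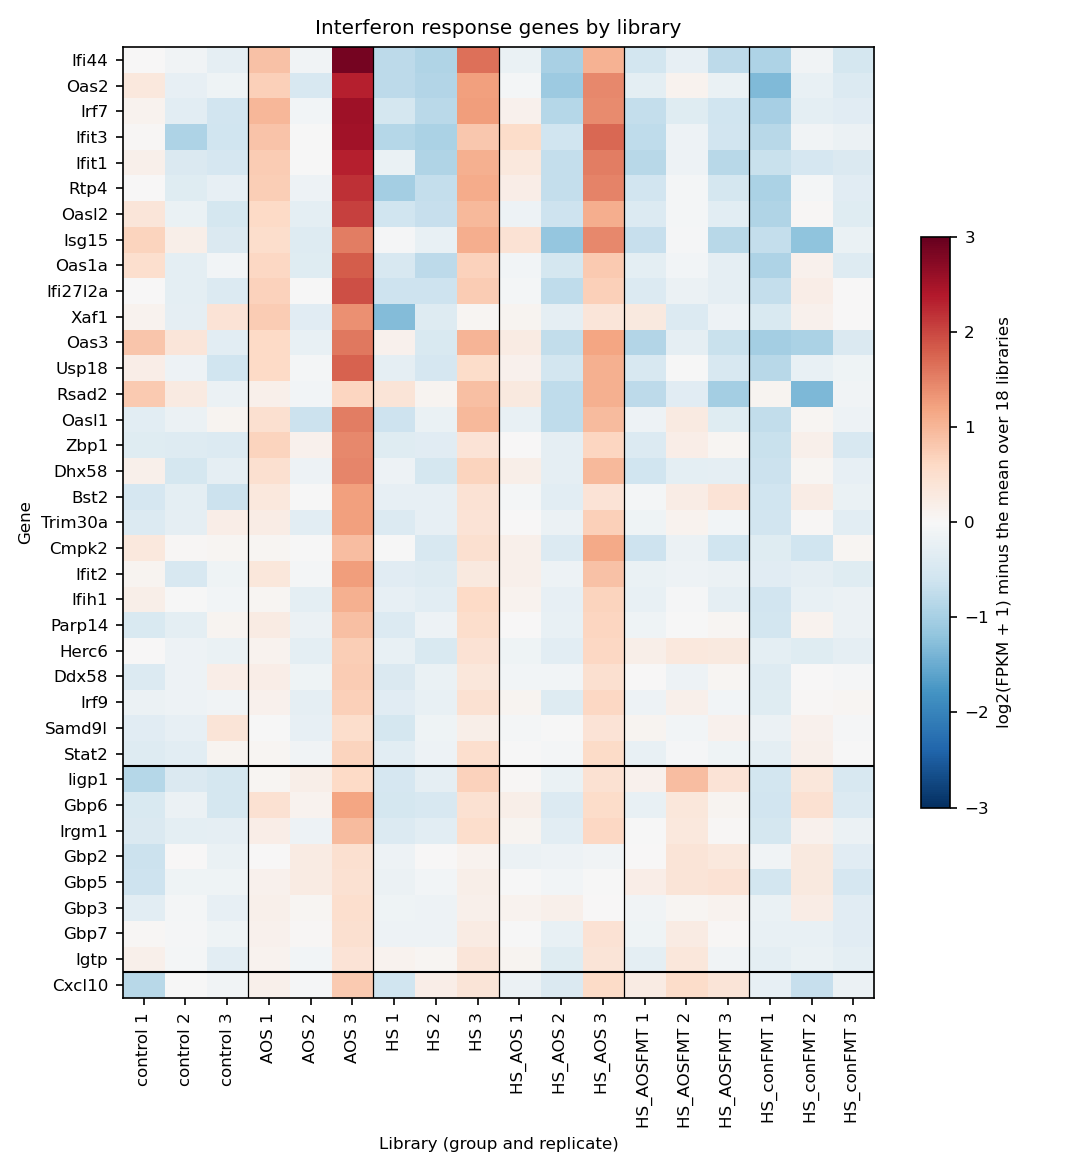
Level of each of the 37 genes (rows) in each of 18 libraries (columns, by group), as log2(FPKM + 1) minus the gene's mean over all libraries; horizontal lines part the type I-type genes, the GTPases and Cxcl10. AOS 3, HS 3 and HS_AOS 3 are red across most type I-type rows, and AOS 3 is the highest library for 34 of 37 genes.

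The transcription factors of the pathway showed the pattern at different sizes. Irf7, the master regulator of the late interferon response (chromosome 7, 141262706 to 141266481, mm10), was at 93.0, 43.6 and 276 FPKM in AOS 1 to 3, at 31.7, 25.8 and 112 in HS and at 50.9, 25.1 and 124 in HS_AOS. It lay at 27.6, 35.5 and 29.9 in HS_AOSFMT, at 22.8, 37.7 and 36.0 in HS_conFMT and from 30.7 to 50.0 in control. The libraries numbered 3 of AOS, HS and HS_AOS were thus the highest 3 of 18. Irf9, the DNA-binding part of the STAT complex, spanned only 39.7 to 86.4 FPKM over 18 libraries, and Stat2 21.6 to 45.7, but both were highest in AOS 3, followed by HS_AOS 3 and HS 3.

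The antiviral effectors followed with wider ranges. Ifit3, which binds viral RNA with its partners, was at 27.3, 14.4 and 88.8 FPKM in AOS, from 7.08 to 26.3 in HS, highest in HS 3, and at 21.9, 9.31 and 50.7 in HS_AOS, against 7.17 to 15.0 in the other 3 groups. Isg15, a ubiquitin-like modifier, was at 117, 61.9 and 237 in AOS, at 78.6, 68.9 and 172 in HS and at 110, 35.6 and 220 in HS_AOS, but control 1 (129) also stood above AOS 1. Usp18, the protease that removes Isg15 from proteins, ran from 7.75 FPKM in HS_conFMT 1 to 52.0 in AOS 3. Of the oligoadenylate synthetases, which switch on the RNase that degrades viral RNA, Oas2 had the widest range (3.89 to 61.1 FPKM, 15.7-fold). Over all 37 genes the range was widest for Ifi44 (2.13 to 43.4 FPKM, 20.4-fold) and narrowest for Igtp (61.9 to 107, 1.73-fold). Ifi27l2a, a mitochondrial protein and the most abundant of the type I-type genes, averaged 330 FPKM and reached 1108 in AOS 3, with 471 and 289 in AOS 1 and 2.

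The sensors of viral nucleic acid were less uniform. Zbp1, a sensor of Z-form nucleic acid, and Dhx58 (LGP2) stood at least 1.5-fold above both other libraries in all 3 of AOS 3, HS 3 and HS_AOS 3, and Ifih1 (MDA5) did so in 2. Ddx58 (RIG-I) did so in none: it was at 24.5, 19.1 and 36.4 FPKM in AOS and at 20.0, 20.0 and 29.9 in HS_AOS. Samd9l, an inhibitor of viral translation, also did so in none (55.1 to 117 FPKM over all libraries). Rsad2 (viperin), which makes a chain-terminating nucleotide, did so in HS_AOS 3 alone and was the type I-type gene whose highest library was not AOS 3 together with its neighbour on chromosome 12, Cmpk2: Rsad2 was at 106 FPKM in HS_AOS 3 and at 78.8 in AOS 3. Control 1 had 87.9 FPKM of Rsad2, above AOS 3.

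The type I-type genes that stood out in all 3 libraries also included Ifit1 (2.18 to 28.8 FPKM over 18 libraries), Ifit2 (5.10 to 19.5), Oas1a (8.12 to 60.1), Oas3 (3.53 to 26.6), Oasl1 (6.14 to 34.3) and Oasl2 (8.28 to 71.1). Rtp4, which inhibits viral genome replication (8.79 to 89.6), Trim30a (23.9 to 86.3), the ADP-ribosyltransferase Parp14 (14.0 to 40.5) and Herc6 (7.16 to 17.8) did so too. Bst2 (64.8 to 241), Irf9, Ifih1 (4.65 to 16.6) and Cmpk2 (6.93 to 25.7) stood out in 2 of the 3, and Xaf1 (8.18 to 57.6) in 1. In all, 20 of 28 type I-type genes stood out in all 3, 4 in 2, 2 in 1 and 2 in 0.

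The GTPase genes moved less. Igtp, the most abundant of them (mean 81.3 FPKM; chromosome 11, 58199556 to 58207591), was at 85.8, 75.5 and 107 FPKM in AOS and at 84.8, 61.9 and 105 in HS_AOS. Gbp2, which coats pathogen vacuoles, was at 26.9, 31.9 and 37.7 in AOS, at 23.9, 27.2 and 29.0 in HS and at 23.7, 24.2 and 25.1 in HS_AOS. HS_AOS 3 thus stood only slightly above the rest of its group for Gbp2. Gbp6 and Irgm1, a regulator of the other GTPases and of autophagy, came nearest to the type I-type genes and stood out in 2 of the 3 libraries. Irgm1 was at 61.4, 47.8 and 104 FPKM in AOS, 39.5, 42.7 and 76.8 in HS and 56.4, 42.6 and 81.9 in HS_AOS. Iigp1, which attacks parasite vacuoles, stood out in HS 3 alone (33.4 against 14.1 and 16.8) and had its highest value in HS_AOSFMT 2 (40.0). Over the mean of the other libraries of its group, the median fold of the type I-type genes was 2.44 in AOS 3, 1.89 in HS 3 and 2.15 in HS_AOS 3, and that of the GTPase genes was 1.33, 1.27 and 1.44. Cxcl10, which draws T cells and NK cells, was at 41.1 FPKM in AOS 3 against 26.5 and 23.1, at 35.4 in HS_AOS 3 against 20.9 and 17.1, and at 31.3 in HS 3 against 15.2 and 27.4.

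**Figure D2:**
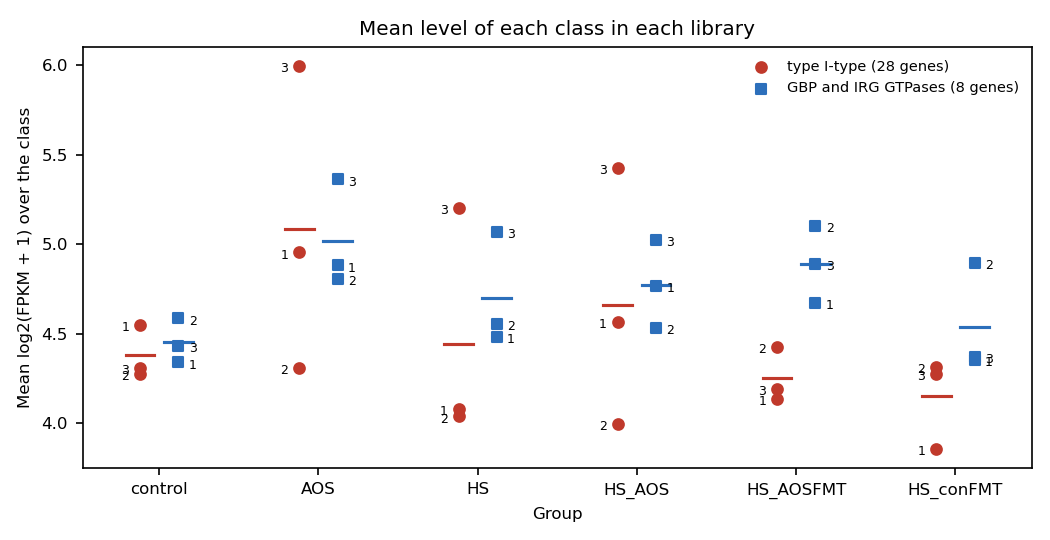
Mean log2(FPKM + 1) over the 28 type I-type genes (circles) and the 8 GTPase genes (squares) in each library; numbers are the replicate numbers and lines the group means. The type I-type mean reaches 5.99 in AOS 3, 5.43 in HS_AOS 3 and 5.20 in HS 3, while the GTPase mean of these libraries (5.36, 5.02 and 5.07) lies near that of HS_AOSFMT 2 (5.10).

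Averaged over each set on the log2(FPKM + 1) scale, the type I-type genes ranked AOS 3, HS_AOS 3 and HS 3 first, then AOS 1 (4.96) and HS_AOS 1 (4.57), and put HS_conFMT 1 last (3.86). The GTPase genes ranked AOS 3 first and HS_AOSFMT 2 second, followed by HS 3 (5.07) and HS_AOS 3 (5.02), and put control 1 last (4.34). All 37 genes, the 8 GTPase genes included, were highest within their group in AOS 3 and in HS 3, as were 38.7% and 32% of all genes. In HS_AOS 3 this held for 35 of the 37 (23.8% of all genes). The GTPase genes thus shared the direction at a smaller size. Control 1 was sixth in the type I-type order (4.55). The opposite also occurred inside groups: AOS 2 had 15, HS_AOS 2 had 11 and HS_conFMT 1 had 7 of the 37 genes at least 1.5-fold below both other libraries, against 0.632%, 0.355% and 0.617% of all genes. In HS_conFMT 2, 3 of the 8 GTPase genes but 1 of the 28 type I-type genes stood 1.5-fold above the rest of the group. The difference between the sets was not tested, since genes of a set are not replicates.

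**Figure D3:**
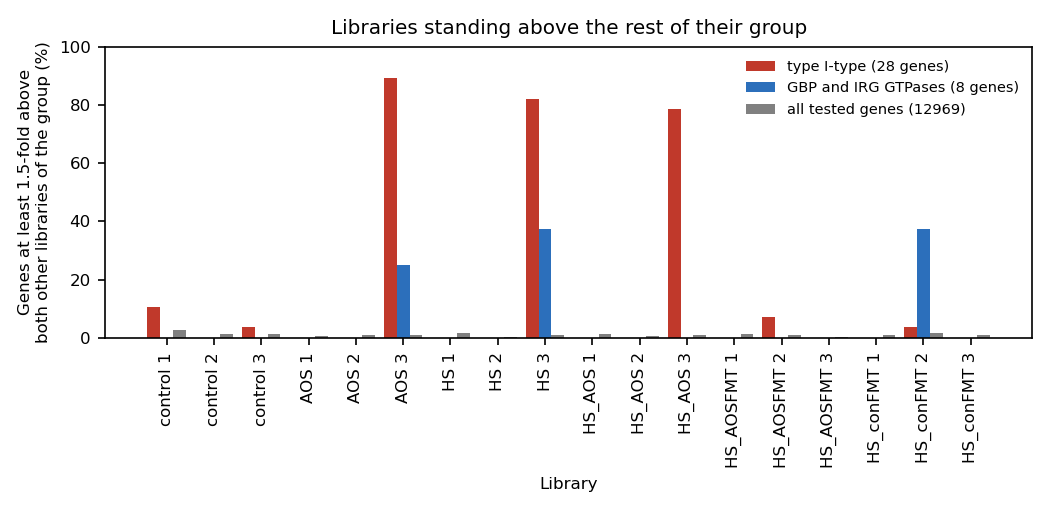
Share of the type I-type genes, the GTPase genes and all tested genes that stood at least 1.5-fold (FPKM + 1) above both other libraries of their group, for each library. The type I-type bars are tall in AOS 3, HS 3 and HS_AOS 3 (25, 23 and 22 of 28 genes), and the bar of all genes stays under 3% in every library.

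This placed the type I-type genes among the most variable between libraries of a group. The pooled within-group SD of log2(FPKM + 1) had a median of 0.562 over the 28 type I-type genes, 0.256 over the 8 GTPase genes and 0.151 over all tested genes. Of the type I-type genes 20 lay in the top 5% of all tested genes, as did Gbp6 alone of the GTPases. Ifi44 (0.970) and Oas2 (0.957) were the most variable, and Gbp3 (0.185) and Gbp7 (0.214) the least. With AOS 3, HS 3 and HS_AOS 3 set aside, a choice made after seeing the data, the medians were 0.359, 0.237 and 0.156.

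**Figure D4:**
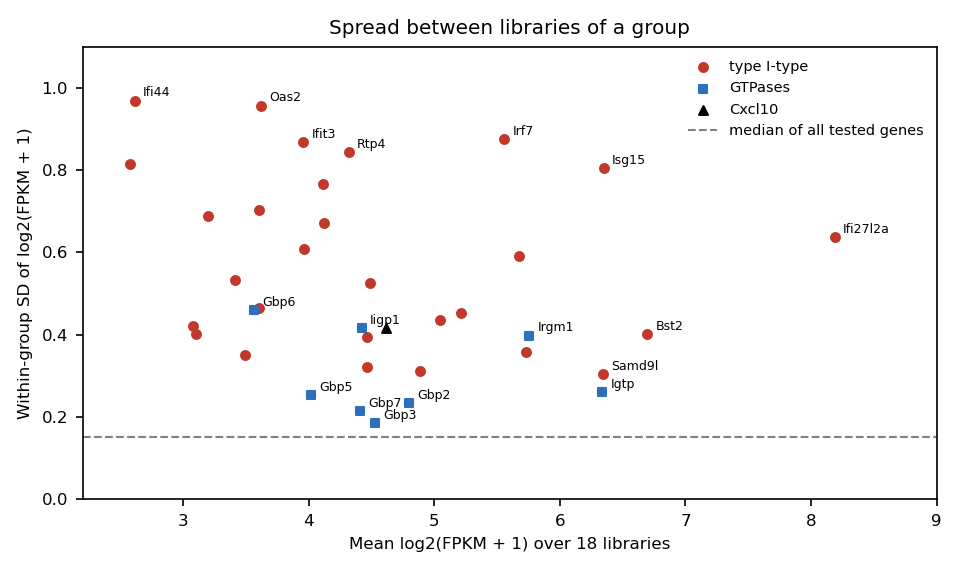
Within-group SD of log2(FPKM + 1), pooled over the 6 groups, against the mean log2(FPKM + 1) of each of the 37 genes; the dashed line is the median of all tested genes (0.151). Type I-type genes spread from 0.305 to 0.970 and the GTPases from 0.185 to 0.460.

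Few other genes shared the pattern. In AOS 3, HS 3 and HS_AOS 3 together, 38 of 12969 tested genes (0.293%) stood 1.5-fold above both other libraries of their group each time. They included 20 of the 28 type I-type members and 0 of the 8 GTPase members, and 8 belonged to no list used here. A further 9 came from a list of 39 other interferon-stimulated genes, among them Ifit3b, Oas1g, Ifitm3, Rnf213 and Slfn8. Of 13 other targets of interferon gamma, such as the antigen presentation and immunoproteasome genes, 0 stood out in any of the 3 libraries, and of 9 further GTPase genes 3 did in AOS 3, 6 in HS 3 and 1 in HS_AOS 3. Of 9 interferon receptor and Janus kinase genes, 0 stood out. Of 10 interferon genes looked for, 5 had a row under their symbol, and these were scarcely seen. Ifng ran from 0.68 to 2.04 FPKM over the 18 libraries, Ifna4, Ifnl2 and Ifnk were listed at 0 in all of them, and Ifnl3 was listed at 0.16 in AOS 3 and at 0 elsewhere. Ifnb1, Ifna1, Ifna2, Ifna5 and Ifne had no row, so their levels are not known here.

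The summed level of NK cell markers was higher in AOS 3, HS 3 and HS_AOS 3 than in the rest of their groups. Most of that sum came from a single gene, the granzyme Gzma, whose levels are given under other observations. The summed level of the 6 NK markers was 93.7 FPKM in AOS 3, 74.9 in HS 3 and 76.0 in HS_AOS 3, against 56.0 and 57.3, 34.3 and 36.6, and 39.1 and 41.4 in the other libraries of those groups. Control 3 had a like NK sum (83.7) with a type I-type mean of 4.31, in the middle of the order. The NK sum was 46.4 to 83.7 in control, 45.4 to 54.7 in HS_AOSFMT and 35.8 to 47.1 in HS_conFMT, and 1, 3 and 3 of the 6 markers passed the 1.5-fold line in AOS 3, HS 3 and HS_AOS 3. Gzma was the only NK marker to pass it in AOS 3. The part of the NK markers in the result was not tested. Of the 8 markers of plasmacytoid dendritic cells, the main producers of interferon alpha, 0 passed this line in any of the 3 libraries. Their sum was 233 FPKM in AOS 3 (193 and 197 in AOS 1 and 2), 199.96 in HS 3 (349.75 and 201.7) and 179.9 in HS_AOS 3 (358 and 249). The highest of these sums, in HS 1 and HS_AOS 1, fell in the libraries with the highest sums of pancreatic acinar markers (17119 and 19297 FPKM). Whether the 2 sums are linked was not tested, so they may not measure these dendritic cells alone. Of 8 erythroid markers, 2, 0 and 4 passed the 1.5-fold line in AOS 3, HS 3 and HS_AOS 3. Haemoglobin genes took 17.2% of the summed FPKM in AOS 3, 27.5% in HS 3 and 33.1% in HS_AOS 3, against 21.5% to 29.1% in the other 6 libraries of these groups, so the 3 libraries did not share a high or a low share.

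In the comparisons between groups, none of the 37 genes was called. limma was run on log2(FPKM + 1) of 12969 genes, those reaching 1 FPKM in 3 or more libraries, and a gene is described as called where its Benjamini-Hochberg adjusted p was under 0.05. Over all 6 groups together the limma F test called 0 of 37 genes, against 5.08% of all genes, and 3 had an unadjusted p under 0.05, against 25.2% of all genes. The 7 contrasts follow. Several share a group, so their values are not independent of each other.

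**Figure D5:**
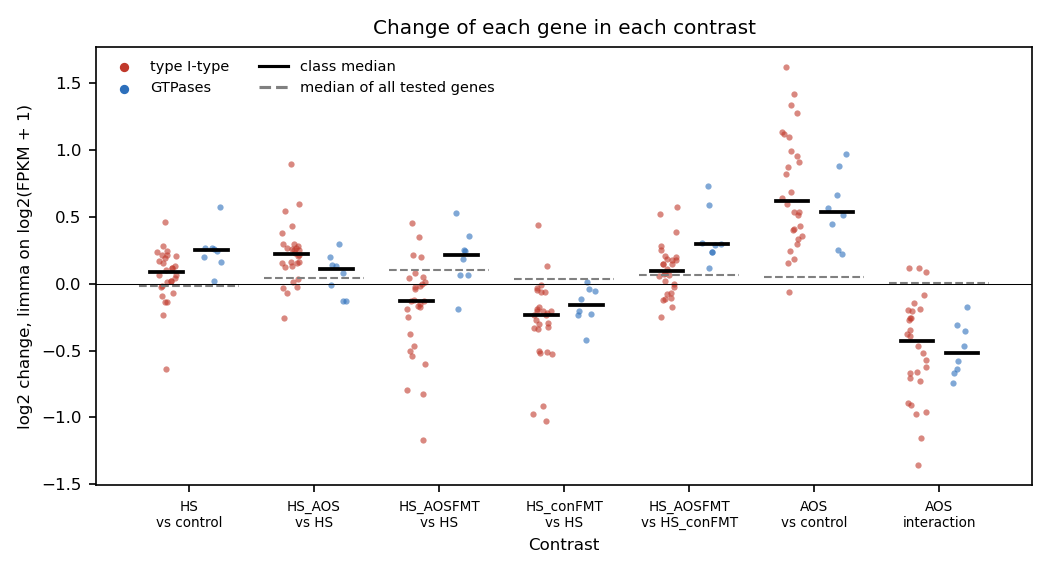
limma log2 change of each type I-type gene and each GTPase gene in the 7 contrasts; black lines are the medians of each set and dashed lines the median of all tested genes. AOS vs control has the highest medians (0.62 and 0.54), and in HS_AOSFMT vs HS the sets lie on opposite sides of 0 (-0.13 and 0.21).

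AOS against control, which asks what AOS does to an undamaged spleen, had the largest shifts. Levels were higher in AOS for 36 of the 37 genes, as for 62.5% of all genes, and 11 had an unadjusted p under 0.05 (11.3% of all genes), but limma called 0, against 0.00771% of all genes. The median log2 change was 0.62 for the type I-type genes and 0.54 for the GTPases, beside 0.046 over all genes. The libraries of the 2 groups did not overlap for Zbp1, Bst2, Gbp3, Gbp5, Gbp6, Irgm1 and Iigp1, 7 genes where AOS was higher throughout, as it was for 11.6% of all genes. Zbp1 was at 51.7, 35.3 and 88.4 FPKM in AOS and at 24.5, 24.3 and 23.9 in control (log2 change 1.14, SE 0.324, limma adjusted p = 0.243). Bst2 (tetherin), which holds budding virus at the cell surface, was at 128, 101 and 241 against 71.6, 84.2 and 64.8 (0.99, SE 0.300, limma adjusted p = 0.262). For both, AOS 3 was highest but AOS 1 and AOS 2 also lay above every control library. Gbp3 was at 24.8, 23.2 and 31.7 FPKM against 17.5, 21.3 and 18.4 (0.45, SE 0.141, limma adjusted p = 0.278), and Gbp5, which takes part in inflammasome assembly, at 16.6, 18.2 and 21.1 against 9.60, 13.7 and 13.8 (0.56, SE 0.189, limma adjusted p = 0.311).

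Part of the AOS difference rested on AOS 3. Without AOS 3 the median was 0.17 for the type I-type genes and 0.38 for the GTPases, 31 of 37 genes were still higher in AOS, and 4 had an unadjusted p under 0.05 (6.16% of all genes). Without AOS 2 the type I-type median was 1.06 and 26 genes had such a p (11.9% of all genes), and limma still called 0. Zbp1 kept a log2 change of 0.79 and Bst2 one of 0.63 without AOS 3. Of the 13 other targets of interferon gamma, 13 were higher in AOS, 11 of them with an unadjusted p under 0.05, and limma called 0; their median was 0.38. Markers of other cells differed between these groups too, with 0 called. The 8 neutrophil markers were all lower in AOS (median -2.08, 8 with an unadjusted p under 0.05), and their sum was 15416, 4190 and 806 FPKM in control 1, 2 and 3 and 559 to 1449 in AOS. The 6 plasma cell markers were all higher (0.93, 6 with such a p; 1275 to 1595 FPKM against 592 to 1121), as were the 8 T cell markers (0.36, 4 with such a p; 384 to 429 against 235 to 365). Their part in the AOS difference was not tested. Without HS 1, HS_AOS 1 and control 1, the set medians were 0.76 and 0.40.

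High fat diet and STZ against control gave small differences. The type I-type genes had a median log2 change of 0.086 (20 of 28 above 0) and the GTPases of 0.25 (8 of 8), beside -0.015 over all genes, of which 45.5% lay above 0. limma called 0 of 37 genes (0.0154% of all genes), and 0 had an unadjusted p under 0.05 (6.4% of all genes). Xaf1, a proapoptotic interferon target, was lower in HS, at 8.18, 16.1 and 22.3 FPKM against 23.2, 17.8 and 29.1 (-0.64, SE 0.393, limma adjusted p = 0.854), and the groups overlapped. Bst2 was at 85.8, 86.1 and 138 against 71.6, 84.2 and 64.8 (0.46, SE 0.300, limma adjusted p = 0.881). Bst2 and Zbp1, the latter at 24.6, 25.0 and 42.8 in HS against 23.9 to 24.5, did not overlap; 2 of 37 genes lie near the 3.89% of all genes that were higher throughout in HS. Among the GTPases, Iigp1 was at 14.1, 16.8 and 33.4 against 10.8, 15.0 and 14.0 (0.57, SE 0.311, limma adjusted p = 0.824), and Gbp2 had a log2 change of 0.26 (SE 0.175, limma adjusted p = 0.881). HS 3 set the direction of the type I-type genes: without it their median was -0.27 and 8 of 37 genes lay above 0 in place of 29, while the GTPase median was 0.11. Pancreatic acinar markers were higher in HS for 8 of 8 (median 4.63, 8 with an unadjusted p under 0.05, 0 called), with sums of 17119, 1935 and 2475 FPKM in HS and 8.29 to 1435 in control. The 6 plasma cell markers were all higher (0.55, 6 with such a p, 0 called) and the 8 neutrophil markers all lower (-1.28, 1 with such a p, 0 called). Their part in these differences was not tested. Without HS 1, HS_AOS 1 and control 1 the type I-type median was 0.38 and the GTPase median 0.26.

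AOS on top of diet and STZ, HS_AOS against HS, set against each other 2 groups that each hold 1 high library. The median log2 change was 0.22 for the type I-type genes, 0.11 for the GTPases and 0.039 for all genes, and 29 of 37 genes lay above 0, as did 63.2% of all genes. limma called 0 of 37 genes and 0% of all genes, and 0 of 37 had an unadjusted p under 0.05 (5.2% of all genes). This fit leaves out the pairing of replicate numbers described below. With a replicate block on these groups alone, a fit added after seeing the data, 9 of 37 had such a p (8.52% of all genes) and limma called 0 of 37. Xaf1 had a log2 change of 0.60 (SE 0.393, limma adjusted p = 0.985) with 22.8, 17.6 and 27.7 FPKM in HS_AOS, Ifit2 of 0.43 (SE 0.299, limma adjusted p = 0.989), Gbp3 of 0.14 (SE 0.141, limma adjusted p = 0.999) and Gbp6 of 0.30 (SE 0.343, limma adjusted p = 0.999). The type I-type median ran from -0.12 without HS_AOS 3 to 0.52 without HS 3, and the GTPase median from -0.044 to 0.23 without the same libraries; it was -0.032 without HS 1 and -0.013 without HS 1, HS_AOS 1 and control 1 together. With both of these libraries and AOS 3 left out, the medians were 0.24 and 0.16.

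The interaction, the AOS difference under diet and STZ minus that without them, was above 0 for 3 of the 37 genes. Its median was -0.43 for the type I-type genes and -0.52 for the GTPases, beside 0.0021 over all genes, of which 50.5% lay above 0. limma called 0 of 37 (0.00771% of all genes) and 3 had an unadjusted p under 0.05 (5.97% of all genes). These were Gbp2 (-0.64, SE 0.248, limma adjusted p = 0.739), Bst2 (-0.96, SE 0.424, limma adjusted p = 0.807) and Gbp5 (-0.57, SE 0.267, limma adjusted p = 0.835), and Zbp1 was at -0.91 (SE 0.459, limma adjusted p = 0.852). Without AOS 3 the type I-type median was 0.018 and the GTPase median -0.29.

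FMT labelled with AOS against diet and STZ alone gave set medians on opposite sides of 0, a difference between the sets that was not tested. In HS_AOSFMT vs HS the type I-type genes had a median log2 change of -0.13, with 9 of 28 above 0, and the GTPases of 0.21, with 7 of 8 above 0, beside 0.10 over all genes, of which 67.4% lay above 0. limma called 0 of 37 genes in a contrast where it called 9.23% of all genes, and 1 of 37 had an unadjusted p under 0.05, against 28% of all genes. That was Rsad2, at 28.7, 39.6 and 24.1 FPKM in HS_AOSFMT and at 66.3, 52.8 and 94.2 in HS (-1.17, SE 0.446, limma adjusted p = 0.108). Its groups did not overlap, as for 7.64% of all genes in that direction. Oas3 was at 4.01, 6.67 and 4.84 against 9.05, 5.68 and 17.5 (-0.82, SE 0.521, limma adjusted p = 0.313). Gbp5 was higher throughout, at 17.4, 20.1 and 20.7 against 13.4, 14.3 and 17.2 (0.36, SE 0.189, limma adjusted p = 0.227), as were 30.8% of all genes, and Iigp1 was at 22.6, 40.0 and 27.7 against 14.1, 16.8 and 33.4 (0.53, SE 0.311, limma adjusted p = 0.278). The sign of the type I-type median rested on HS 3: without it the median was 0.29 and 30 of 37 genes lay above 0 in place of 17, while the GTPase median was 0.38. After quantile normalization the all-gene median was 0.026, the sets were at -0.23 and 0.13, and 10 of 37 genes lay above 0. Markers of other cells differed strongly: limma called 8 of 8 acinar markers lower (median -7.67), with sums of 2.91 to 35.5 FPKM in HS_AOSFMT against 1935 to 17119 in HS. The 8 erythroid markers were all lower (-1.05), with Alas2 called, and 5 of 8 T cell markers were called higher (0.67). Their part in the differences of the set medians was not tested. Without HS 1, HS_AOS 1 and control 1 the set medians were -0.34 and 0.047. Fitted to these groups alone, limma called Rsad2 (adjusted p = 0.0378), and with AOS 3, HS 3 and HS_AOS 3 left out it called Herc6, a ligase that attaches Isg15 (0.61, adjusted p = 0.0462).

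The control FMT against diet and STZ alone had lower values for most of the genes. In HS_conFMT vs HS 2 of 28 type I-type genes and 1 of 8 GTPases lay above 0, with medians of -0.24 and -0.16 beside 0.032 over all genes, of which 59.3% lay above 0. limma called 0 of 37 (0.00771% of all genes), and 1 had an unadjusted p under 0.05 (6.32% of all genes). This was Igtp, at 65.6, 70.1 and 65.5 FPKM in HS_conFMT and at 85.7, 82.7 and 103 in HS (-0.42, SE 0.194, limma adjusted p = 0.774). Igtp and Gbp7 (17.4, 17.3 and 15.8 against 18.1, 18.1 and 24.3; -0.24, SE 0.162, limma adjusted p = 0.800) did not overlap between the groups, as for 2.99% of all genes in that direction. Rsad2 was at 52.8, 19.0 and 46.5 FPKM in HS_conFMT (-0.92, SE 0.446, limma adjusted p = 0.774) and Oas3 at 3.53, 3.74 and 5.86 (-1.03, SE 0.521, limma adjusted p = 0.774). Without HS 3 both medians were above 0, at 0.097 and 0.028, and 27 of 37 genes lay above 0 in place of 3. The 8 acinar markers were all lower in HS_conFMT (median -3.77, 0 called), with sums of 197, 44.2 and 2637 FPKM, and their part was not tested.

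The 2 transplant groups hold none of the 3 high libraries, so the log2 changes between them do not involve these. The SEs and p-values do, since they come from the model of all 18 libraries. In HS_AOSFMT vs HS_conFMT the GTPases had a median log2 change of 0.29 with 8 of 8 above 0, and the type I-type genes of 0.095 with 19 of 28 above 0, beside 0.062 over all genes, of which 61.9% lay above 0. Without HS_conFMT 1 the type I-type median was -0.052, and 20 of 37 genes lay above 0 in place of 28. limma called 0 of 37 genes (5.85% of all genes), and 4 had an unadjusted p under 0.05 (22.8% of all genes): Herc6, Gbp5, Iigp1 and Cxcl10. After rescaling without haemoglobin genes, 1 of 37 had such a p (19.1% of all genes) and 23 lay above 0. Haemoglobin genes took 35.5%, 14.7% and 25.7% of the summed FPKM in HS_conFMT 1, 2 and 3, and 12.9% to 17.6% in HS_AOSFMT. Their part in these differences was not tested. Gbp5 was at 17.4, 20.1 and 20.7 FPKM against 10.0, 18.9 and 10.4 (0.58, SE 0.189, limma adjusted p = 0.0802), with HS_conFMT 2 inside the HS_AOSFMT range and the other control FMT libraries far below. Without HS_conFMT 2, limma called it (0.86, adjusted p = 0.00414). Iigp1 was at 22.6, 40.0 and 27.7 against 13.6, 26.1 and 14.3 (0.73, SE 0.311, limma adjusted p = 0.175). Herc6 was at 11.8, 12.9 and 12.8 FPKM against 8.16, 7.67 and 8.36 (0.57, SE 0.261, limma adjusted p = 0.205), and limma called it when fitted to these groups alone (adjusted p = 0.0343) and with AOS 3, HS 3 and HS_AOS 3 left out (adjusted p = 0.0219). Cxcl10 was at 28.3, 34.7 and 31.2 against 19.7, 14.2 and 20.7 (0.77, SE 0.310, limma adjusted p = 0.156). Bst2 had a log2 change of 0.39 (SE 0.300, limma adjusted p = 0.473) and its groups overlapped. Herc6, Cxcl10, Ifit2 and Gbp7 did not overlap between the groups and were higher in HS_AOSFMT, as were 21.5% of all genes.

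Some genes of the other interferon lists, upstream genes and further targets alike, were called in the contrasts of HS_AOSFMT. Calls were common over all genes in these contrasts, so those below describe single genes and not the lists. In HS_AOSFMT vs HS, limma called both chains of the interferon gamma receptor higher, where it called 8.08% of all genes higher and 1.15% lower. Ifngr1 rose from 57.8, 67.7 and 58.1 FPKM to 102, 88.5 and 97.4 (0.64, SE 0.104, limma adjusted p = 0.00427), and Ifngr2 by 0.35 (limma adjusted p = 0.0328). They were 2 of 9 receptor and kinase genes tested, and the type I receptor genes Ifnar1 (23.1 to 28.01 FPKM in HS_AOSFMT, 20.4 to 22.8 in HS) and Ifnar2 (75.1 to 78.1 and 74.7 to 77.1) were not called. Socs3, which blocks Janus kinases, rose from 10.8, 11.7 and 10.5 to 15.4, 23.4 and 24.3 (0.85, SE 0.178, limma adjusted p = 0.0134). With Ptpn2 (0.33) and Irf2bp2 (0.31) it made 3 of 8 negative regulators called higher. Irf3, 1 of 6 transcription factors outside the members, rose by 0.38 (limma adjusted p = 0.0381), and Tlr13, 1 of 11 sensors, by 0.52 (limma adjusted p = 0.0462). Of 39 other interferon-stimulated genes 1 was called, Isg20, an exonuclease, which fell from 180, 163 and 180 FPKM to 80.7, 106 and 75.0 (limma adjusted p = 0.0348). Of 13 other targets of interferon gamma and 9 further GTPase genes, 0 were called in HS_AOSFMT vs HS. Against HS_conFMT, limma called Ifngr1 (0.51), Tlr13 (0.73), Socs3 (0.81), Irf2bp2 (0.25) and Cd274 (PD-L1, 0.53) higher, where 4.81% of all genes were called higher. Cd274 was 1 of the 13 targets of interferon gamma. Of the 6 transcription factors, 39 other interferon-stimulated genes and 9 further GTPase genes, 0 were called there. Of these calls, that of Ifngr1 against HS held under all 15 alternatives (largest limma adjusted p = 0.0431), and that of Socs3 ended without HS 1 or HS_AOSFMT 3 (largest limma adjusted p = 0.0631) and without AOS 3, HS 3 and HS_AOS 3 together (limma adjusted p = 0.0706). The other 6 against HS ended without at least 3 of the 6 libraries and after rescaling without haemoglobin genes, and each of the 5 against HS_conFMT ended without at least 2 of the 6. HS_AOSFMT had the highest summed T cell markers of the 3 groups (506 to 611 FPKM, against 326 to 411 in HS and 344 to 492 in HS_conFMT). Its erythroid sums ran from 57124 to 98597 FPKM, against 155560 to 179910 in HS and 65445 to 194420 in HS_conFMT. Its acinar markers are given above. The part of all these markers in the calls was not tested.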

How the data were processed

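The deposited values are read here as FPKM; the file names no unit, and it was inferred from 2 decimals and from sums that differ between libraries (coefficient of variation 6.14%, or 1.18% when weighted by transcript length). Per the submitters' processing notes, the genome build was mm10 and Bowtie 0.12.2 was used; how fragments were counted, on which annotation and with which filter is not given in the sources used here. Gene positions are from GENCODE M21, to which 97.1% of the symbols matched. Genes reaching 1 FPKM in 3 or more libraries were fitted on the log2(FPKM + 1) scale with limma 3.58.1 (R 4.3.3), in a single model of all 18 libraries whose only factor was the group. Variances were moderated by eBayes with its trend and robust options, with 12 residual and 3.38 prior degrees of freedom. All 12969 p-values of a contrast, two-sided, were adjusted together by Benjamini-Hochberg; the fit was tested on simulated data. Log2 changes of low genes are understated on this scale.

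The members and lists were chosen with earlier results of these data known. Full statistics are given for the 2 members of each set with the smallest p in a contrast, together with members that an alternative called or with an unadjusted p under 0.05; other members are given by level. Genes above 1.5-fold in a single library, and the alternative without AOS 3, HS 3 and HS_AOS 3, were chosen after the values were seen. Alternatives were a pseudocount of 0.1, no filter, a stricter filter of 5 FPKM, quantile normalization, rescaling without haemoglobin genes, fits to the groups of a contrast, a replicate block, leaving out each library, and leaving out together HS 1, HS_AOS 1 and control 1, which stood apart on the first principal component in earlier results; their acinar sums (17119 and 19297 FPKM in the first 2) or neutrophil sum (15416 in control 1) were the highest.

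Replicate numbers in the labels were checked for pairing. Deviations of same-numbered libraries of HS_AOS and HS correlated at 0.487, 0.287 and 0.372, so by the rule used here the numbers pair in that contrast; the labels give no origin for this. Low values of 73 genes put relative depth at 0.971 to 1.05, by a method blind to large differences.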

Additional observations from a re-analysis of the deposited data

How the results depend on the processing

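Of 362 alternative values of the counts of called members and set medians, 355 were rated as kept. For a set median this meant a shift within the spread between libraries, the pooled within-group SD of the set mean. That SD was 0.546 for the type I-type genes and 0.261 for the GTPases, with AOS 3, HS 3 and HS_AOS 3 included. It is wide: the type I-type median of HS vs control was rated as kept at -0.27 without HS 3, against 0.086. The main fit called 0 members, so there was no member call to turn around. The 7 that moved were counts of called members that became 1 in place of 0. In HS_AOSFMT vs HS the count was 1 with the fit to these groups alone and 1 with AOS 3, HS 3 and HS_AOS 3 left out. In HS_AOSFMT vs HS_conFMT it was 1 under both of these settings, 1 with the replicate block (Gbp5, limma adjusted p = 0.0490) and 0 to 1 when each library was left out. Over any of 6 groups it was 0 to 1 on leaving out each library, through Gbp5 without HS_conFMT 2 (limma adjusted p = 0.0110).

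Set medians within that spread still crossed 0 where HS 3, HS_AOS 3, AOS 3, HS 1 or HS_conFMT 1 was left out, as given with each contrast; the causes were not tested. Counts over all genes were less stable. Leaving out each library gave 203 to 751 calls in HS_AOSFMT vs HS (1197 with all), 199 to 1201 in HS_AOSFMT vs HS_conFMT (759), 81 to 1525 over any of 6 groups (659), 3 to 20 in HS vs control (2), 1 to 49 in AOS vs control (1), 0 to 3 in HS_AOS vs HS (0), 0 in HS_conFMT vs HS (1) and 1 to 8 in the interaction (1). Without haemoglobin genes in the total, HS_AOSFMT vs HS had 398 calls and HS_AOSFMT vs HS_conFMT 440; with quantile normalization HS_AOSFMT vs HS had 794. No scaling changed the sign of a set median, but without haemoglobin genes the type I-type median of HS_AOSFMT vs HS_conFMT was 0.013, and that over all genes was -0.016.

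The replicate block fitted over all groups called 0 members in HS_AOS vs HS, where the numbers pair, and so did the block on these groups alone, a fit added after seeing the data (9 members with an unadjusted p under 0.05, 8.52% of all genes). In the other contrasts the rule did not pair the numbers (same-number correlations from -0.355 to 0.464), and what same-numbered libraries share is not labelled. There the block changed no call of a member other than that of Gbp5, and members with an unadjusted p under 0.05 in AOS vs control were 19 (12.5% of all genes) in place of 11 (11.3%). Depth limits low values such as those of the interferon genes, for which no counting error can be given.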

Other observations

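Among the 38 genes that stood 1.5-fold above the rest of their group in AOS 3, HS 3 and HS_AOS 3 each time, 8 belonged to no list used here: Gm12250, Hspa1a, Hspa1b, Ifi206, Ifi207, Ifi213, LOC671917 and Slfn4. Ifi206, Ifi207 and Ifi213 belong to the interferon-inducible family of cytosolic DNA sensors, and Slfn4 is a Schlafen gene of myeloid cells. Hspa1a and Hspa1b encode the inducible HSP70 chaperones. On the log2(FPKM + 1) scale, Hspa1a stood above the mean of the other libraries of its group by 0.87 in AOS 3. The excess was 1.76 in HS 3 and 1.63 in HS_AOS 3. For Hspa1b it was 0.82, 1.85 and 1.64. Gzma, a granzyme of NK cells and the remaining gene of the 38, was at 61.4, 48.6 and 46.6 FPKM in these libraries, at 18.4 to 33.7 in the other 6 libraries of their groups and at 52.8 in control 3. These genes were chosen after their values were seen.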
